A study of Mus musculus with 7 samples.

Results

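Bone morphogenetic proteins (BMPs), TGF-beta proteins and activins form one family of secreted growth factors. The 37 genes described here encode members of this signalling pathway: 10 ligands, 10 receptors, 8 SMAD proteins, 5 secreted antagonists or modulators and 4 Id proteins. They were taken by symbol from a list of such genes, chosen for their known roles and with earlier results of these data known. They make up 37 of the 27179 genes in the count table, and all of them had reads in at least 1 library. The ligands bind pairs of type I and type II receptors with kinase activity, which phosphorylate SMAD1, SMAD5 and SMAD9 on the BMP side and SMAD2 and SMAD3 on the TGF-beta and activin side. Phosphorylated SMADs join SMAD4, enter the nucleus and act on target genes, among them the Id genes and the inhibitory Smad6 and Smad7. In the pharyngeal arches, the buds that form the jaws, middle ear and parts of the neck, BMP signals from the epithelium help to pattern the neural crest mesenchyme, and TGF-beta signals take part in growth of the palate and jaw.

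Reads were obtained by chromatin immunoprecipitation (ChIP) with an anti-V5 antibody from E10.5 mouse embryos of the C57BL/6 strain, from which the first and second pharyngeal arches were taken. The tagged group (V5) was homozygous for a Kat6a allele, also called Moz, whose protein ends in a Flag-V5-BIO tag; KAT6A is a histone lysine acetyltransferase, and the tagged allele sits at its own locus and leaves the mice viable and fertile. The control group was wild type and has no V5 epitope, so its reads measure the background of the immunoprecipitation. There were 3 libraries of each group and 1 input library, made from tagged arches without antibody. The tissue is a mixture of cell types, and stronger binding in few cells cannot be told apart from weaker binding in many.

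The ChIP libraries held 806648 to 3286602 counts and the input 3488745, and 1 count was worth 1.24 CPM (counts scaled to a library total of 1000000) in V5 replicate 1, the shallowest library, and 0.304 CPM in V5 replicate 3, the deepest ChIP library. The pathway genes took 0.206%, 0.205% and 0.222% of the counts in V5 replicates 3, 2 and 1, and 0.200% to 0.212% in the wild-type libraries. They took 0.175% of the input. Library spread was wider in the tagged group: the SD of CPM was larger in V5 than in wild type for 21 of 29 members with enough counts to test, and for 69.2% of all tested genes. The V5 libraries also differed more in depth, since those of wild type held 1288732 to 2504595 counts. The part of depth in this spread was not tested. Since the reads are chromatin and not RNA, marker genes of cell types do not show which cells were present. Summed CPM of endothelial marker genes were 354 to 410 in V5 and 299 to 337 in wild type, without overlap, and their part in the results below was not tested. How often sums of other genes separate was not counted, so this describes the reads and not the cells. Those of arch mesenchyme were 247 to 301 against 238 to 267, epithelium 259 to 302 against 283 to 302, blood 144 to 173 against 107 to 160, muscle progenitors 22.3 to 50.9 against 10.55 to 23.3, and neurons 66.9 to 149 against 96.6 to 107.

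The number of reads over a pathway gene followed its length. Bmper, the longest with 262127 bp, had a mean of 206 CPM in V5 and 244 in wild type, whereas Id1, the shortest with 1137 bp, had 0.304 and 0.133. Across the 37 genes Spearman's rho between the deposited length and the mean CPM of the 6 ChIP libraries was 0.977 and Pearson's r on log2 scales was 0.970, over genes of the same libraries and thus with no p. Per kb of deposited length the 29 tested members had 0.451 to 1.85 CPM per kb in V5 (median 0.999), 0.608 to 1.59 in wild type (median 0.828) and 0.225 to 1.88 in the input (median 0.742). The 8 members with too few counts to test ranged more widely, at 0.260 to 2.72, 0.117 to 1.68 and 0 to 2.92. The medians over all 14575 tested genes were 0.935, 0.939 and 0.911. The largest level per kb among tested members was that of Smad7 in V5, of Bmp4 in wild type and of Tgfb1 in the input. The deposited length differed by over 1% from the whole gene span in 16 members. Bmpr1b has a deposited length of 145116 bp in a span of 332451 bp, and which part of it was counted is less certain.

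**Figure D1:**
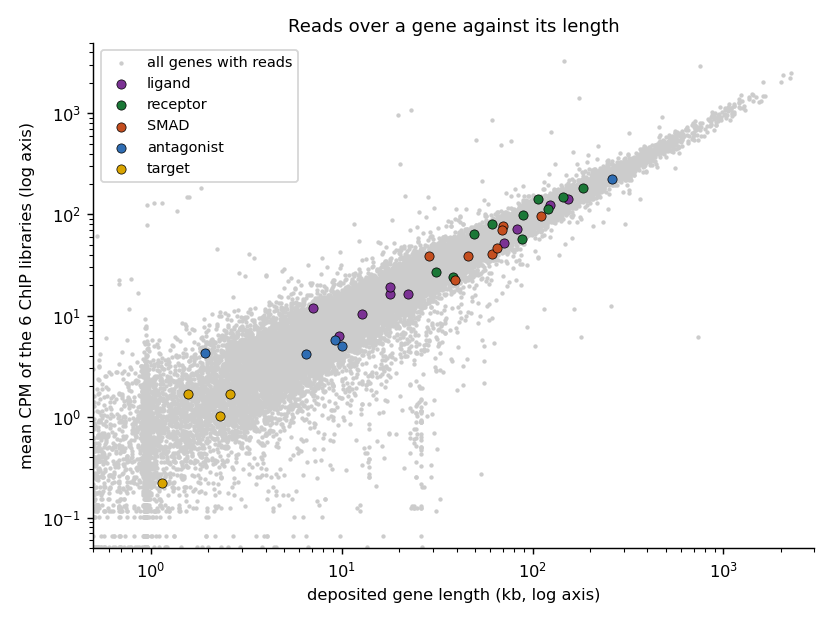
Mean CPM of the 6 ChIP libraries (log axis) against deposited gene length in kb (log axis); each coloured point is 1 pathway gene, coloured by role, and grey points are all genes with reads. The pathway genes lie within the cloud of all genes and run from Id1 at 1137 bp to Bmper at 262127 bp.

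The comparison of tagged with wild-type arches asks for which genes tagged KAT6A gave more reads per gene. No pathway gene passed edgeR's quasi-likelihood test with Benjamini-Hochberg adjustment over all tested genes (0 of 29 members at an adjusted p of 0.05; background 0% of 14575 genes in each direction), and adjusted p ranged from 0.980 to 0.999. At an unadjusted p under 0.05 there was 1 member, Smad7, with more reads in V5, where the background is 2.74% of tested genes with more reads in V5 and 1.38% with fewer. That count of members was 0 with the replicate number as a block (Smad7 unadjusted p = 0.0679, edgeR) and 0 to 3 with 1 library left out: 0 without any single wild-type library, 2 without V5 replicate 1 (Acvr2b and Smad3), 1 without V5 replicate 2 (Acvr1) and 3 without V5 replicate 3 (Smad7, Gdf6 and Tgfb2). Among these leave-outs Smad7 had such a p in the last alone (unadjusted p = 0.00303, edgeR). Over all genes, 760 of 15722 tested had such a p without V5 replicate 1 and 768 of 15574 without V5 replicate 2. The number was 1610 of 15530 without V5 replicate 3, and the 3 members there are a similar share of the 29. With 1 wild-type library left out it was 314 to 473, and with the block 583 of 14575. In the main fit 600 of all tested genes had such a p (4.12%). DESeq2 called 0 genes as well, with 1048 of 24447 at an unadjusted p under 0.05. Among all 37 members, 2 had such a p with DESeq2, Gdf6 (unadjusted p = 0.0442) and Smad7 (unadjusted p = 0.0259). Of the 29 members the log2 fold change was positive in 14 and negative in 15, and its median was -0.04, beside 52.0% positive and a median of 0.02 over all tested genes. All V5 libraries lay above all wild-type libraries in 1 member, Smad6 (background 4.83%), and below them in 1 member, Bmpr1a (background 5.27%). These shares are near those of all genes.

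The intervals say how large a difference in the reads counted for a gene could have been missed. They set no limit on binding confined to a part of a gene, such as its start, which was not measured. For 10 of the 29 members the 95% interval of the fold change lay inside 2-fold either way (background 27.1% of tested genes): Bmp5, Bmp6, Bmp7, Bmpr1b, Bmpr2, Acvr2a, Tgfbr1, Tgfbr3, Smad2 and Bmper. For Bmpr2, the type II BMP receptor gene, the interval ran from 0.682-fold to 1.27-fold. For the short ligand gene Bmp2 it ran from 0.163-fold to 2.15-fold, so that a several-fold deficit of V5 reads over the gene lay within the error at this depth.

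**Figure D2:**
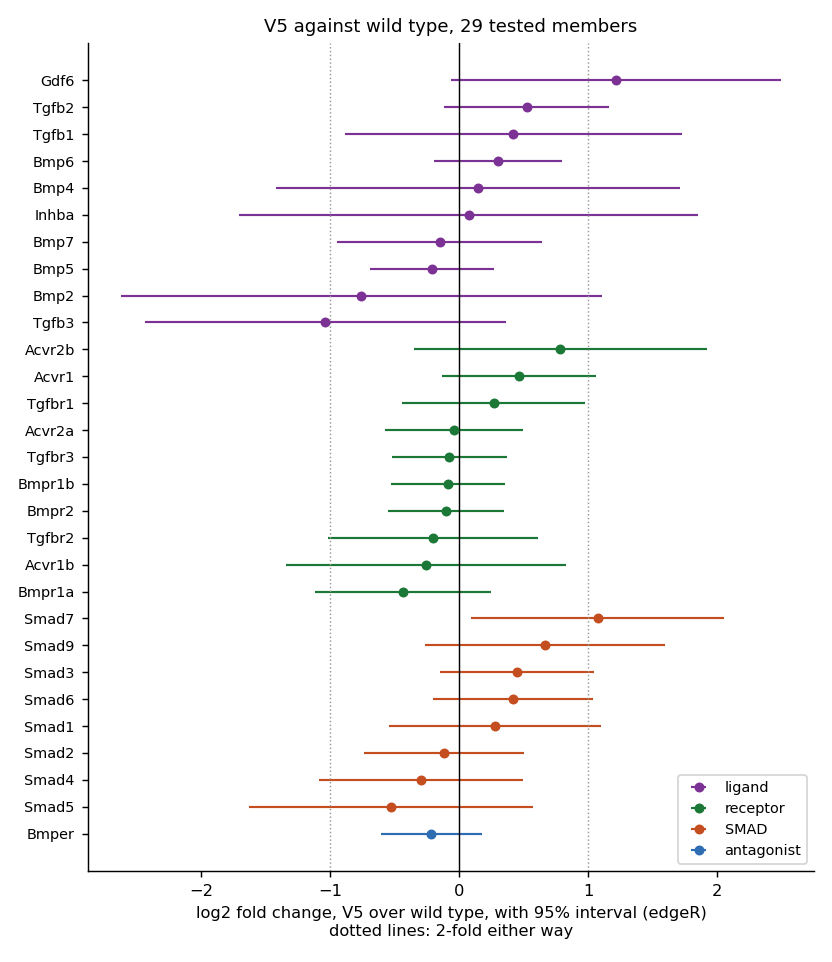
Log2 fold change of V5 over wild type with its 95% interval (edgeR) for the 29 tested members, coloured by role; dotted lines mark 2-fold either way. Every interval except that of Smad7 crosses 0, and the intervals are widest for the short genes Bmp2, Inhba and Bmp4.

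Among the ligand genes, all 10 of which were tested, 6 had a positive and 4 a negative log2 fold change; the median was 0.11 and the range ran from -1.03 to 1.22. Gdf6 encodes a BMP-type growth factor with roles in joints and the skull (GeneID 242316, chromosome 4, 9844372 to 9862345 in mm10). It had V5 counts of 20, 44 and 53 in replicates 1 to 3, wild-type counts of 15, 8 and 41 and 49 counts in the input, or 24.8, 38.7 and 16.1 CPM against 11.6, 6.03 and 16.4, with 14.05 in the input. V5 replicates 1 and 2 lay above every wild-type library, but V5 replicate 3 lay just under wild-type replicate 3, so the groups overlapped. The log2 fold change was 1.22 ± 0.62 (SE; adjusted p = 0.980, edgeR), and its interval reached from 0.956-fold to 5.64-fold.

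Tgfb2 and Tgfb3 encode TGF-beta isoforms that act in palate and heart development, and their values lay on opposite sides. Tgfb2 (GeneID 21808, chromosome 1, 186622787 to 186709697) had V5 counts of 82, 98 and 221, wild-type counts of 70, 76 and 171 and an input count of 180. In CPM these were 102, 86.1 and 67.2 against 54.3, 57.3 and 68.3, with 51.6 in the input. Only V5 replicate 3 fell within the wild-type range, and the log2 fold change was 0.52 ± 0.31 (SE; adjusted p = 0.980, edgeR). Tgfb2 overlaps the genes Gm26169 and Gm35655, so its count is less certain.

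Tgfb3 (GeneID 21809, chromosome 12, 86056743 to 86079041) had V5 counts of 2, 18 and 42, wild-type counts of 28, 42 and 33 and an input count of 43. In CPM, V5 had 2.48, 15.8 and 12.8, wild type had 21.7, 31.6 and 13.2, and the input had 12.3. V5 replicate 2 lay above wild-type replicate 3, so the groups overlapped, and the estimate of -1.03 ± 0.67 (log2 fold change and SE) was not past the threshold (adjusted p = 0.980, edgeR). The third isoform gene, Tgfb1, had 13.2 to 21.9 CPM in V5 and 9.58 to 21.9 in wild type. The input, at 33.8 CPM, was above all 6 ChIP libraries.

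Of the BMP ligand genes, the long Bmp5 and Bmp6 were measured most precisely. Bmp5, which acts in skeletal and ear cartilage, had 114 ± 20.5 CPM in the V5 group against 134 ± 7.49 in the control (SD, n = 3), with a log2 fold change of -0.21 (SE 0.23). Bmp6 had 154 ± 34.6 against 127 ± 7.10 CPM, with V5 replicate 1 at 191 and replicate 3 at 122. Its log2 fold change was 0.30 (SE 0.24). Bmp7 stood at -0.15 (SE 0.38). Bmp4, a main epithelial signal of the arches, had V5 counts of only 5, 27 and 23 and wild-type counts of 15, 21 and 16 over 7080 bp and also overlaps 2 predicted genes, and Bmp2 had 3, 1 and 28 against 6, 15 and 21. Inhba, which encodes the subunit of activin A, had V5 counts of 19, 2 and 21 and wild-type counts of 15, 10 and 27. In CPM the V5 libraries enclosed the wild-type ones, with 1.76 to 23.6 against 7.53 to 11.6. For none of these 6 ligand genes did the groups separate.

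**Figure D3:**
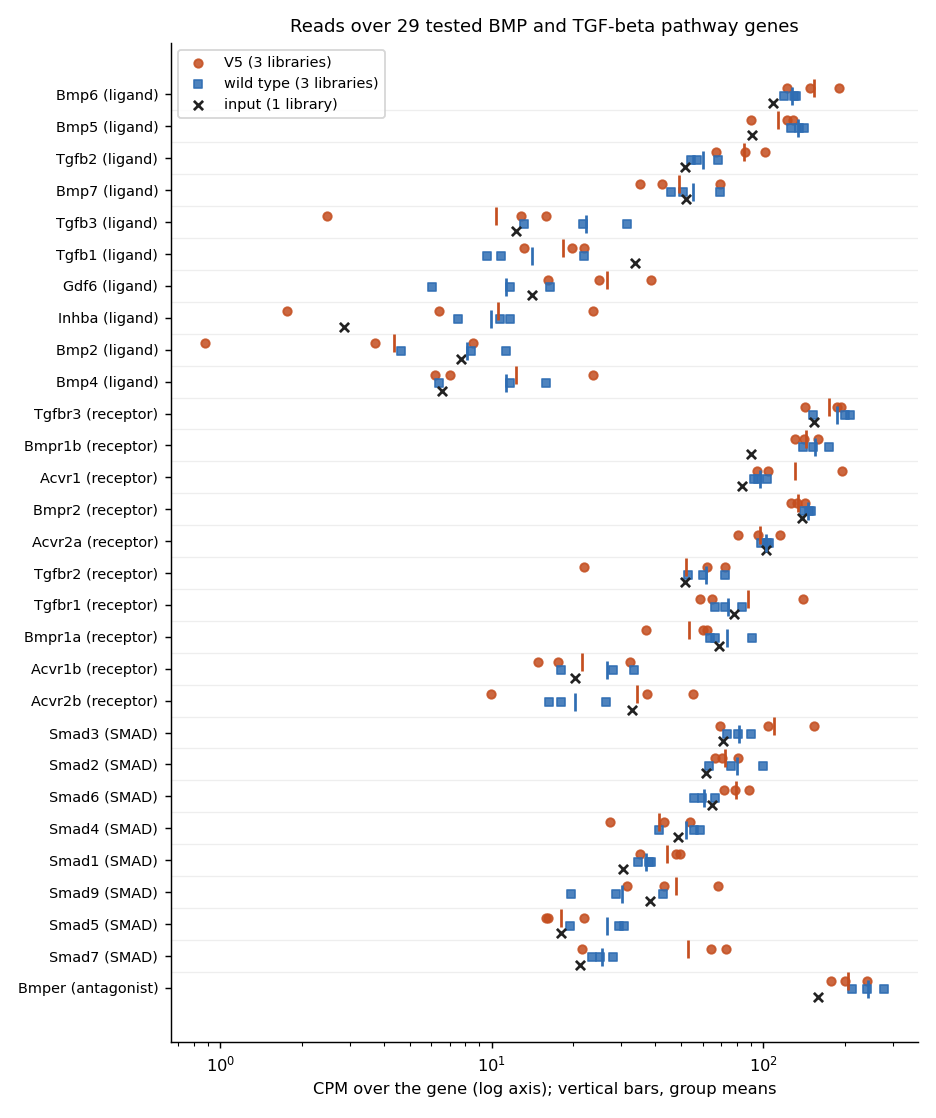
CPM over the gene in each library (log axis) for the 29 tested members, ordered by role and, within a role, by length; circles are V5 libraries, squares wild-type libraries, crosses the input, and vertical bars the group means. V5 libraries are spread more widely than wild-type libraries in 21 of the 29 genes. In Smad7, Gdf6, Tgfb2 and Bmp6 V5 replicates 1 and 2 lie above all wild-type libraries while V5 replicate 3 does not.

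Of the 10 receptor genes, all tested, 3 had a positive and 7 a negative log2 fold change, with a median of -0.08. Acvr1 encodes ALK2, a type I receptor for BMPs (GeneID 11477, chromosome 2, 58446438 to 58566828). It had V5 counts of 157, 108 and 344, wild-type counts of 123, 123 and 259 and an input count of 291. In CPM, V5 replicate 1 stood apart at 195 (Poisson 95% interval 165 to 228, counting error only), while V5 replicates 2 and 3 had 94.9 and 105 and the wild-type libraries 95.4, 92.7 and 103. Its log2 fold change was 0.46 ± 0.29 (SE; adjusted p = 0.980, edgeR), and it was 0.01 without V5 replicate 1. Acvr1 overlaps Upp2. Tgfbr1, the type I receptor gene of TGF-beta, also had its highest value in V5 replicate 1, with 140 CPM (interval 115 to 168). V5 replicates 2 and 3, with 65.0 and 58.4 CPM, lay below the wild-type libraries, which had 66.7 to 83.6.

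Acvr2b, which encodes a type II receptor for activins (GeneID 11481, chromosome 9, 119401583 to 119442148), had V5 counts of 8, 63 and 123, wild-type counts of 21, 35 and 45 and an input count of 115. The values in CPM were 9.92, 55.3 and 37.4 in V5 against 16.3, 26.4 and 18.0 in wild type. V5 replicate 1 was thus the lowest of all libraries and V5 replicate 2 the highest, and the input, with 33.0 CPM, lay above all of the wild-type libraries. Its log2 fold change was 0.78 ± 0.55 (SE; adjusted p = 0.980, edgeR).

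Bmpr1a, the type I BMP receptor gene needed in neural crest and arch development (GeneID 12166, chromosome 14, 34411061 to 34503336), was the member in which the V5 libraries lay wholly below. It had V5 counts of 30, 71 and 198, wild-type counts of 117, 85 and 166 and an input count of 241, or 37.2, 62.4 and 60.2 CPM against 90.8, 64.0 and 66.3, with 69.1 in the input. The gap between V5 replicate 2 and wild-type replicate 2 was small. The estimate of -0.44 ± 0.33 (log2 fold change and SE) was not past the threshold (adjusted p = 0.980, edgeR), and the deposited length of the gene is 53.7% of its span.

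The estimates of the other receptor genes lay closer to 0. Bmpr2 had 134 ± 7.72 CPM in V5 against 147 ± 4.41 in wild type, Bmpr1b 144 ± 14.2 against 156 ± 17.6, Acvr2a 97.4 ± 17.6 against 102 ± 3.70, and Tgfbr3, the betaglycan gene, 175 ± 27.3 against 188 ± 30.0 (SD, n = 3). Their log2 fold changes lay between -0.10 and -0.04, and all 4 are among the genes whose interval lay inside 2-fold. Tgfbr2, the type II TGF-beta receptor gene, had 22.0 to 72.7 CPM in V5 and 52.7 to 72.2 in wild type, and Acvr1b, the type I activin receptor gene, 14.9 to 32.3 against 18.1 to 33.5. The groups overlapped in all of these, in Bmpr2 by a small margin, with 127 to 142 CPM in V5 and 142 to 151 in wild type.

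Among the SMAD genes 5 of 8 were on the positive side, with a median of 0.35. Summed over the 8 genes the V5 libraries had 456, 500 and 442 CPM, the wild-type libraries 403, 352 and 425, and the input 355. The V5 sums lay above the wild-type sums, a description of chosen genes for which no p is given. Of the single SMAD genes, Smad6 alone had all V5 libraries above all wild-type libraries. How often sums of other genes separate was not counted, and the part of single genes in these sums was not tested. The separation is thus no result about the SMAD genes as a group. The closest libraries were V5 replicate 3 at 442 and wild-type replicate 3 at 425 CPM. No other role group separated: the sums for ligands were 433 to 533 against 431 to 487 CPM, for receptors 875 to 1007 against 927 to 978 and for antagonists 188 to 268 against 231 to 300. Those for the Id genes were 2.48 to 4.39 against 3.88 to 6.78 CPM.

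Smad7 encodes an inhibitory SMAD that blocks TGF-beta and BMP receptors and is itself a target of the pathway (GeneID 17131, chromosome 18, 75367365 to 75395935). Its counts were 59, 73 and 71 in the V5 libraries, 36, 31 and 63 in the controls and 74 in the input. In CPM, V5 replicates 1 and 2 had 73.1 (Poisson 95% interval 55.7 to 94.3) and 64.1 (50.3 to 80.6), whereas V5 replicate 3, the deepest, had 21.6 (16.9 to 27.2). The wild-type libraries had 27.9, 23.4 and 25.2 and the input 21.2 (16.7 to 26.6). V5 replicate 3 was therefore below all wild-type libraries and at the level of the input, and the difference was carried by V5 replicates 1 and 2. The log2 fold change was 1.07 (SE 0.47, interval 1.07-fold to 4.15-fold, edgeR unadjusted p = 0.0332, adjusted p = 0.980). It was 0.69 without V5 replicate 1, 0.91 without V5 replicate 2 and 1.49 without V5 replicate 3 (adjusted p = 0.444). Smad7 overlaps the predicted gene Gm41776.

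Smad6, the other inhibitory SMAD gene, which acts mainly against BMP signals (GeneID 17130, chromosome 9, 63953076 to 64022085), was the member in which V5 lay wholly above. It had V5 counts of 58, 101 and 258, wild-type counts of 86, 79 and 140 and an input count of 227. That is 71.9, 88.7 and 78.5 CPM against 66.7, 59.5 and 55.9, with 65.1 in the input, inside the wild-type range. Smad6 had a log2 fold change of 0.42 ± 0.30 (SE; adjusted p = 0.980, edgeR).

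Smad9, which encodes a BMP-specific SMAD (GeneID 55994, chromosome 3, 54755455 to 54801662), had V5 counts of 55, 36 and 142, wild-type counts of 37, 26 and 107 and an input count of 134. V5 replicate 1, with 68.2 CPM, lay above the rest, while V5 replicates 2 and 3 had 31.6 and 43.2 and wild type 28.7, 19.6 and 42.7. Smad9 had a log2 fold change of 0.67 ± 0.45 (SE; adjusted p = 0.980, edgeR). Smad3, a mediator of TGF-beta and activin signals (GeneID 17127, chromosome 9, 63646766 to 63757994), had 56, 176 and 343 counts against 116, 107 and 184, with 248 in the input. Here V5 replicate 1 was the lowest of all ChIP libraries at 69.4 CPM and V5 replicate 2 the highest at 155, with V5 replicate 3 at 104 and wild type at 90.01, 80.6 and 73.5. Its log2 fold change was 0.45 (SE 0.29), and the gene overlaps Gm51710.

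Smad1 had 44.2 ± 7.87 CPM in V5 against 37.1 ± 2.19 in wild type. Smad5 had 17.9 ± 3.44 against 26.5 ± 6.19, Smad2 72.6 ± 7.14 against 79.8 ± 18.8, and Smad4, the common partner, 41.4 ± 13.4 against 52.0 ± 9.26 (SD, n = 3). The log2 fold changes of these 4 genes lay between -0.53 and 0.28 and none passed.

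V5 replicate 1 had the highest CPM of the 6 ChIP libraries in 9 of the 29 tested members and the lowest in 9, and V5 replicate 3 the highest in 3 and the lowest in 4. Over all tested genes V5 replicate 1 was the highest in 23.0% and the lowest in 32.8%, and V5 replicate 3 in 9.60% and 4.99%. V5 replicate 1 has the fewest counts of the ChIP libraries and V5 replicate 3 the most, and the part of depth in the values of single genes was not tested.

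Of the 5 antagonist genes only Bmper passed the filter on low counts. It encodes a secreted BMP-binding protein (GeneID 73230, chromosome 9, 23223076 to 23485215) and had V5 counts of 161, 203 and 793, wild-type counts of 361, 282 and 603 and an input count of 554. In CPM these were 200, 178 and 241 against 280, 212 and 241, with 159 in the input, which lay below all 6 ChIP libraries. The V5 and wild-type ranges overlapped, and the log2 fold change was -0.21 (SE 0.19, interval 0.658-fold to 1.13-fold, edgeR adjusted p = 0.980).

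The other 4 antagonist genes and the 4 Id genes fell below the filter. In none of these 8 did the V5 and wild-type libraries separate (background 2.77% wholly above and 3.87% wholly below, of 9872 genes below the filter). The smallest two-sided exact permutation p was 0.4, where 3 against 3 libraries allow 0.1, and all 8 had a p of 1 after Benjamini-Hochberg adjustment over genes below the filter. Nog encodes noggin, which binds BMPs outside the cell, and had V5 counts of 10, 1 and 8, wild-type counts of 7, 3 and 5 and an input count of 12. Its CPM were 12.4, 0.878 and 2.43 against 5.43, 2.26 and 2.00, so that V5 held the highest and the lowest library. Chrd, the chordin gene, had 3, 5 and 30 counts against 4, 6 and 23, with 33 in the input, and it overlaps Thpo. Grem1, the gremlin gene, had 1, 3 and 26 against 7, 10 and 13, with 20 in the input. Fst encodes follistatin, which binds activins, and had 2, 2 and 24 counts against 7, 5 and 11, with 19 in the input. In Chrd, Grem1 and Fst the deep V5 replicate 3 held the most counts of the ChIP libraries, and its CPM of 9.13, 7.91 and 7.30 were above those of V5 replicates 1 and 2.

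The Id genes encode helix-loop-helix proteins without a DNA-binding region and are direct BMP targets. Their short spans of 1137 to 2610 bp held few reads. Id1 had V5 counts of 0, 0 and 3, wild-type counts of 0, 0 and 1 and an input count of 5. By the floor of 3 counts, 0 counts allow up to 3.72 CPM in V5 replicate 1 (upper limit of the Poisson 95% interval 4.57). Id2 had 0, 1 and 3 against 4, 0 and 3, with 2 in the input. Id3 had 1, 3 and 6 against 1, 2 and 5, with 16 in the input. Id4 had 1, 1 and 2 against 0, 7 and 5, with 0 in the input, which allows up to 0.860 CPM by that floor (Poisson upper limit 1.06). The groups overlapped in all 4, and the 4 genes together had 2, 5 and 14 counts against 5, 9 and 14. The input had 4.59 CPM over Id3 and 1.43 CPM over Id1; with counts this low its rank among the ChIP libraries is not determined.

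**Figure D4:**
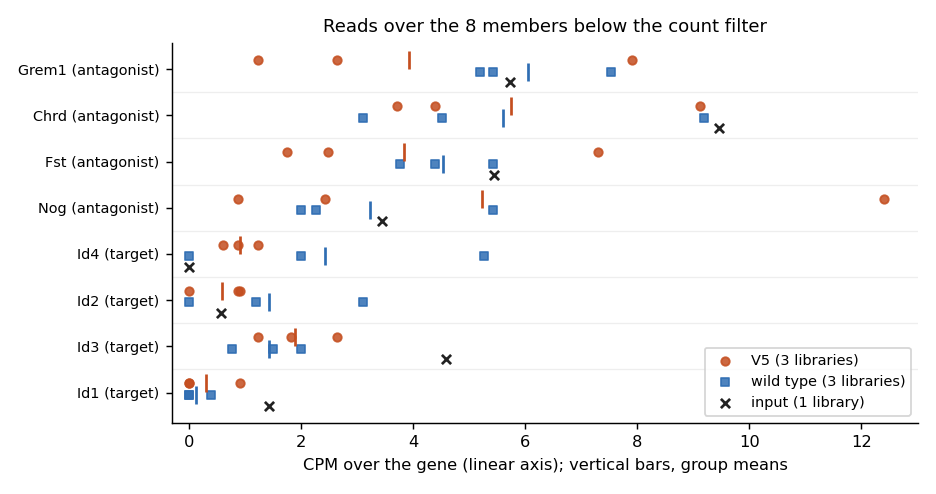
CPM over the gene in each library (linear axis) for the 8 members below the count filter; circles are V5 libraries, squares wild-type libraries, crosses the input, and vertical bars the group means. The V5 and wild-type libraries overlap in every gene, and Nog in V5 replicate 1 reaches 12.4 CPM.

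The sequences before the starts of 3 Id genes are shown because they lie just outside the RefSeq spans of these short genes. The deposited lengths give no positions, so which bases were counted is not known. Promoter windows of RefSeq (GRCm38.p6, 250 bases before to 50 after a gene start) were matched by symbol for 26 of the 37 members, with 31 windows. They were searched on both strands for CAGAC, which holds the core of the SMAD box, and for GGCGCC, a GC-rich SMAD motif; these do not overlap each other in the sequences below. CAGAC was in 13 of the 31 windows (41.9%) and in 49.6% of all 32851 windows of that length, and GGCGCC was in 11 (35.5%) and in 11.9% of all windows, without matching for base composition. Some windows, such as those of Acvr2b, Tgfb2, Chrd and Bmpr1b, start from an inner transcript start and lie within the gene span. A match is a description of the letters and not a bound site. The 250 bases before the start of Id2, Id3 and Id4 are printed 5′ to 3′ on the strand of the gene, with matches in capitals. They lie at chr12:25096093-25096342 (minus strand), chr4:136143572-136143821 (plus strand) and chr13:48260866-48261115 (plus strand).
Id2: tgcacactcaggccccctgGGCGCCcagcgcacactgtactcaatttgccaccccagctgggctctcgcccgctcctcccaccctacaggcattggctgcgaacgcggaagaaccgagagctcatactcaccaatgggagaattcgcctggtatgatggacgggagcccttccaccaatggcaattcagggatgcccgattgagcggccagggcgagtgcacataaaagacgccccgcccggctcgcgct
Id3: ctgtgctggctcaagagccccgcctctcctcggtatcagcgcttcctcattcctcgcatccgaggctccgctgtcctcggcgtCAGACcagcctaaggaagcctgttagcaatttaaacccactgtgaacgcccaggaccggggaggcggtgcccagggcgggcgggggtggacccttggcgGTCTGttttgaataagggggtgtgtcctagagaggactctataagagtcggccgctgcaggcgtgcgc
Id4: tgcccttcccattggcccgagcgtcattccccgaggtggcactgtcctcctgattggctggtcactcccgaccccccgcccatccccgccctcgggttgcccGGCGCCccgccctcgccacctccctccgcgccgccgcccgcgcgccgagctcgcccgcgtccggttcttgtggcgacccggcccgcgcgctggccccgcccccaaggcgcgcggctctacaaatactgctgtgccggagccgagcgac
Id2 and Id4 each hold 1 GGCGCC and no CAGAC in this stretch, and Id3 holds 2 CAGAC matches, 1 on each strand, and no GGCGCC.

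Beyond the members, a list of 78 other genes of the pathway was looked up, among them further ligands, latent TGF-beta binding proteins, SMAD ubiquitin ligases and co-repressors. Of these, 54 were tested and 24 fell below the filter. Adjusted over all genes 0 passed in either direction (edgeR), and 0 had an unadjusted p under 0.05 (background 4.12%; smallest p 0.0850). There were 25 positive and 29 negative log2 fold changes; their median was -0.06 and they ran from -1.72 to 1.25.

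Both ChIP groups were also set against the input. The input is 1 library, so these ratios have no test. Of the 32 members with at least 70 counts over the 7 libraries, 21 had more CPM in V5 than in the input and 23 had more in wild type, with median ratios of 1.13 and 1.16. Over all 16736 such genes the shares were 52.3% and 50.1%, and the median ratios 1.03 and 1.00. The V5 mean was at least 1.5 times the input in 8 members (background 21.2%) and at most the input divided by 1.5 in 3 (background 19.7%). The wild-type mean was so in 5 (background 17.3%) and 3 members (background 18.7%). Both groups share the input, so the ratios are not independent of each other.

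For some members the mean of the untagged control stood as far from the input as that of V5. Inhba was at 3.65 times the input in V5 and 3.42 times in wild type, from 10 counts in the input. Bmpr1b was at 1.60 and 1.73 times the input and Bmp4 at 1.89 and 1.72. Tgfb1 was at 0.551 and 0.425. In these 4 genes the mean of the wild-type libraries, which have no epitope, lay on the same side of the input as the V5 mean, although V5 replicate 2 was at 0.730 times the input in Inhba and wild-type replicate 3 at 0.978 times in Bmp4. Smad7 was at 2.50 times the input in V5 and 1.21 in wild type, and Gdf6 at 1.90 and 0.822. In single libraries the V5 ratios of Smad7 were 3.45, 3.02 and 1.02 for replicates 1 to 3.

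**Figure D5:**
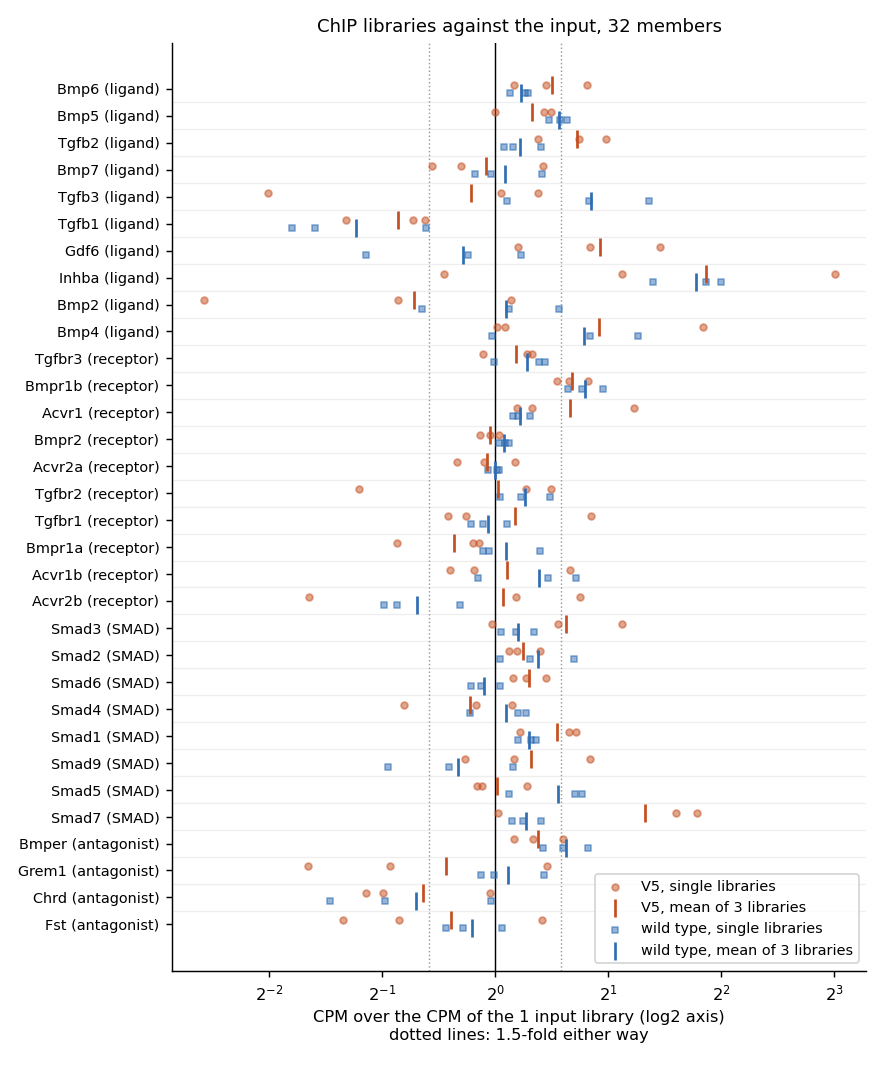
Ratio of CPM in each ChIP library to the CPM of the 1 input library (log2 axis) for the 32 members with at least 70 counts; circles are V5 libraries, squares wild-type libraries, vertical bars the ratios of group means, and dotted lines 1.5-fold either way. Inhba lies furthest right in the means of both groups, and Smad7 lies at 2.50 in V5 and 1.21 in wild type.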

How the data were processed

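Per the file headers, the authors deposited whole-number read counts for each gene, beside an Entrez identifier and a length. Tools named without version or role in the submitters' processing notes are bcl2fastq, featureCounts and MACS, and the build is mm10. How reads were aligned, whether duplicates were kept and which part of a gene was counted is not given in the sources used here. No peak file was used. For 17 members another RefSeq gene (GRCm38.p6, the assembly of mm10) overlaps the span, and strands are not separated. Symbols were matched by identifier (25275 of 27179), and coordinates are RefSeq's. The deposited gene length was used to scale levels per kb. The labels do not say from which embryos each replicate came; p-values cover the spread among libraries only, and this may be technical.

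The V5 against wild-type fit used edgeR 4.0.16 (R 4.3.3; filterByExpr minimum count 10, TMM factors of 0.923 to 1.04, glmQLFit robust, glmQLFTest, two-sided, adjustment over 14575 genes, threshold 0.05; biological coefficient of variation 0.387), after a check on simulated counts. Standard errors come from the F statistic. Members below the filter were compared by an exact permutation test of CPM. Ratios to the input used a prior count of 0.5. Poisson intervals (95%) and floors of 3 counts cover counting error only. Alternatives were DESeq2 1.42.0, other scalings and filters, a replicate block and leaving out each library.

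The members and lists were chosen with earlier results of these data known. Full values are given for members with an unadjusted p under 0.05, the 3 with the smallest p in each role, and members below the filter with at least 10 counts; Smad6, Tgfb1, Tgfbr1, Bmp2, Bmp4, Inhba and Id1 were added after their values were seen. Of other pathway genes, up to 6 with an unadjusted p under 0.05 were to be named. For these genes, the count of non-overlapping groups is not reported here. Cell type marker lists were given as sums. Same-numbered libraries did not deviate together (Pearson r of deviations 0.0138, 0.00562 and 0.0602 for numbers 1 to 3, across genes), so numbers were not taken as pairs.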

Additional observations from a re-analysis of the deposited data

How the results depend on the processing

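No member was called under any of the 12 other settings of the V5 and wild-type comparison (DESeq2, median-ratio factors, library totals, no filter, a minimum count of 20, the replicate block and each of the 6 libraries left out). The 10 tested members chosen by rule kept the sign of their log2 fold change in all of them, but not its size. The rule took members with small p in these data, and the settings share libraries, so the kept signs are no independent support. Beside Smad7 (0.69) and Acvr1 (0.01), leaving out V5 replicate 1 gave 0.27 for Smad9, 0.31 for Tgfb2, -0.66 for Tgfb3 and -0.29 for Bmpr1a; leaving out V5 replicate 2 gave 0.14 for Smad3, 0.31 for Acvr2b and -0.11 for Bmper; leaving out wild-type replicate 1 gave -0.11 for Bmper and -0.27 for Bmpr1a; and leaving out wild-type replicate 2 gave 0.43 for Smad9. Over all genes, 9 were called higher in V5 without the filter on low counts, 1 with the replicate block, and 0 to 2 when 1 library was left out; none of these was a pathway gene. The block left 0 members called, and not every library correlated best with the one of its own number. The median log2 fold change over tested members lay between -0.09 and 0.11 when 1 library was left out and turned positive when V5 replicate 2 (0.11) or V5 replicate 3 (0.08) was left out; the lowest value, -0.090, came without V5 replicate 1. Of the 8 members below the filter, 0 to 2 separated when 1 library was left out, namely 2 when V5 replicate 3 and 1 when wild-type replicate 1 or 2 was left out, where fewer libraries have to separate. The share over all genes below the filter is not given for these leave-outs, so these counts are no result about the members. Against the input the median log2 ratio of V5 was 0.18, and 0.19 to 0.24 with 1 V5 library left out. That of wild type was 0.21, and 0.16 with members of at least 20 counts. The Id genes and most antagonists had few counts, and the part of depth in this was not tested. Counts are given per gene, and binding confined to a gene start was not measured.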
